A study of Triticum aestivum with 4 samples.

Results

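The transcripts described here encode enzymes of glycolysis and of low-oxygen fermentation, together with hemoglobins, in roots of bread wheat (Triticum aestivum, genotype UAS-375). They were chosen by the text of their best protein hit, which had to come from an Aegilops, Triticum, Hordeum or Brachypodium species and name 1 of 10 enzyme or protein classes. The choice gave 157 transcripts in 83 assembled genes, of 91482 transcripts whose counts could be tested and 147297 in the whole table. Of the hits, 148 were from Aegilops and 9 from Brachypodium. The text also caught 21 transcripts of proteins with another function, which are counted apart, so that 136 transcripts in 73 assembled genes remain for the pathway. Roots were taken from plants 45 days old, grown in a greenhouse in PVC pipes in a completely randomized layout. Seeds of the hypergravity group (2 libraries) spent 12 h at 10 g and seeds of the control group (2 libraries) did not, so the treatment was given to seeds and the measurement was made on roots of the plants that grew from them. Both groups were the same genotype. Whether replicate libraries stand for separate plants is not stated in the labels, and p-values therefore measure only the spread between these libraries.

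Glycolysis splits a hexose into pyruvate in the cytosol, and plants run parts of the same path in plastids with separate isoenzymes. When oxygen is short, pyruvate decarboxylase and alcohol dehydrogenase turn pyruvate into ethanol, and L-lactate dehydrogenase turns it into lactate, which in both cases returns the NAD+ that glyceraldehyde-3-phosphate dehydrogenase needs. Non-symbiotic hemoglobins bind oxygen very tightly and take part in the removal of nitric oxide, and in cereal roots they are known, like alcohol dehydrogenase 1, as genes induced by flooding.

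Values are normalized counts, that is, reads of a transcript in a library divided by that library's size factor, and levels are compared between transcripts only per kilobase of transcript. The libraries are called control a and b and hypergravity a and b, letters that carry no pairing. Total counts over the 91482 transcripts with recovered counts lay between 46604327 and 53346750 per library. Shares of counts are shares of the normalized counts of these transcripts, and rows with 1 FPKM value per group are not in them. Libraries of a group correlated at 0.989 in control and 0.987 in hypergravity, and libraries of different groups at 0.942 to 0.956 (Pearson's r across transcripts, which are not independent replicates). Root markers (nicotianamine synthases, expansins and high-affinity nitrate transporters, 51 transcripts) held 0.0478% and 0.0629% of control counts against 0.0518% and 0.0398% of hypergravity counts, and 8 were called higher and 8 lower. Nicotianamine synthases, enzymes of iron acquisition, had 7 of 8 transcripts lower and 0 higher, and held 0.00508% and 0.00739% of control counts against 0.00308% and 0.00228% of hypergravity counts. Nitrate transporters had 4 of 24 higher and 0 lower, and expansins 4 of 19 higher and 1 lower. Counts of called markers stand against 13.5% of all 91482 transcripts called higher and 11.9% called lower. The part of these markers in the results on the members was not tested. Casparian strip proteins, which define the root endodermis, were found only among rows with 1 value per group, in 3 rows at 0.11 to 1.85 FPKM. Green-tissue markers (6 transcripts) held 0.00288% and 0.00294% of control counts against 0.00388% and 0.0033% of hypergravity counts, with both photosystem II transcripts called higher, the oxygen-evolving enhancer lower and 0 of 3 chlorophyll a-b binding proteins called by limma or at an unadjusted p under 0.05. In whole roots, fewer cells of a type and less RNA per cell cannot be told apart, and reads of isoforms and of the 3 wheat subgenomes are shared between near copies, so the level of 1 transcript is less certain than that of its gene.

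All 6 transcripts of alcohol dehydrogenase 1 and 4 of 5 transcripts of pyruvate decarboxylase were higher in roots from hypergravity-treated seeds, 2 of 5 transcripts of L-lactate dehydrogenase were lower, and both transcripts of non-symbiotic hemoglobin were higher, with the largest changes of all 157. Within glycolysis most transcripts did not pass the test, and the strongest rises were in enolase 1 and in 1 cytosolic and 1 plastid form of glyceraldehyde-3-phosphate dehydrogenase. Over the 157 transcripts, 32 were called higher, 13 lower and 112 neither, at an adjusted p under 0.05 in a limma fit of all 91482 transcripts. Over all transcripts 25.5% were called, 13.5% higher and 11.9% lower, which puts the 32 above and the 13 below the count those percentages would give, without a test of the difference. Control and hypergravity libraries did not overlap for 63 members that were higher and 44 that were lower, against 63.9% of all transcripts not overlapping in either direction. Of all 91482 transcripts, 29179 were higher without overlap and 29298 lower. Separations of groups given below stand against these counts. The median log2 fold change was 0.00 for the 157 and -0.01 for all transcripts. With any 1 library left out, fewer members were called higher, and so were fewer of all transcripts. In those fits 12 to 22 of the 157 members had the other sign. Without the mean-variance trend of limma 19 members were called higher and 5 lower, where 10% and 7.24% of all transcripts were. Of the called members, 7 changed at least 2-fold, all of them higher. No assembled gene had members called in both directions.

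**Figure D1:**
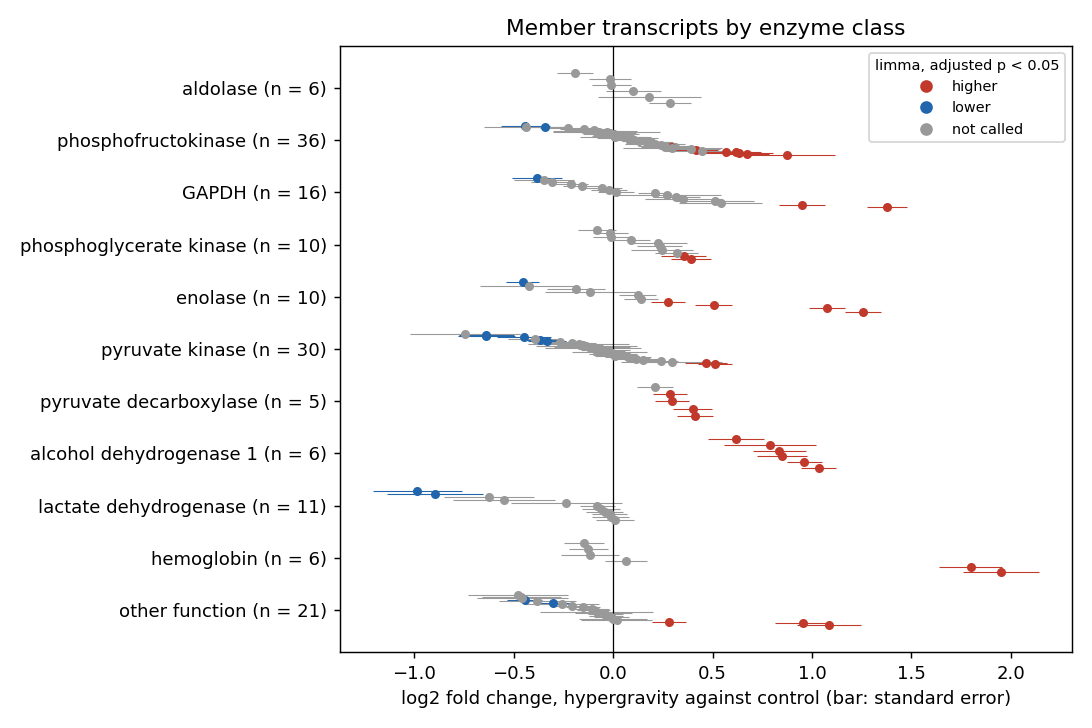
Log2 fold change (hypergravity against control, horizontal axis, with standard error) of the 157 member transcripts, 1 row per enzyme class (GAPDH is glyceraldehyde-3-phosphate dehydrogenase); red and blue points were called higher and lower in limma and grey points were not. The 6 transcripts of alcohol dehydrogenase 1 lie between 0.62 and 1.03, and the 2 points near 2 are non-symbiotic hemoglobin.

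Ethanol fermentation starts with pyruvate decarboxylase, which takes CO2 from pyruvate to give acetaldehyde. Its 5 transcripts fall in 2 assembled genes and were higher by 0.21 to 0.41 on the log2 scale. In each, both hypergravity libraries lay above both control libraries, as in 29179 of all 91482 transcripts. Pyruvate decarboxylase 2 (TRINITY_DN9785_c0_g1_i2), the transcript of the class with the highest level per kilobase, stood at 4030 and 4143 normalized counts in control and at 4895 and 5138 in hypergravity. The groups did not overlap, and the log2 fold change was 0.30 ± 0.09 (SE, limma adjusted p = 0.0297). Pyruvate decarboxylase 1-like (TRINITY_DN9785_c0_g2_i2) stood at 2046 and 1883 in control and at 2504 and 2725 in hypergravity, a log2 fold change of 0.41 ± 0.09 (adjusted p = 0.00912). Both are changes of less than 1.5-fold, and both calls were lost under some alternatives. For decarboxylase 2 the adjusted p was 0.159 without the trend, 0.252 without control a, 0.196 without control b and 0.0626 without hypergravity b. For decarboxylase 1-like it was 0.0911 without the trend and 0.102 without control b. Of the 5 transcripts, 0 were called without the trend, 0 without control b, 2 without control a and 2 without hypergravity b. Summed over all their transcripts, the 2 genes were called higher at adjusted p = 0.0266 and 0.00929.

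Alcohol dehydrogenase 1 reduces acetaldehyde to ethanol and is the best known low-oxygen gene of cereal roots. Its 6 transcripts, in 2 assembled genes, all rose. In each of them both hypergravity libraries lay above both control libraries, as in 29179 of all 91482 transcripts. The most abundant transcript per kilobase (TRINITY_DN2601_c0_g1_i8) stood at 1352 and 1341 normalized counts in control and at 2555 and 2698 in hypergravity, 1.95 times as high. Its sister (TRINITY_DN2601_c0_g1_i9) rose from 1150 and 1147 to 2267 and 2438, a log2 fold change of 1.03 ± 0.09 (adjusted p = 3.24e-05), beside 0.96 ± 0.09 for the first (adjusted p = 4.3e-05). The spread within a group was small beside these differences, and both calls held under every alternative fit of transcripts, at the same threshold of 0.05. The 5 transcripts of this gene together held 3100 and 3166 normalized counts in control and 6059 and 6191 in hypergravity, a log2 fold change of 0.97 ± 0.08 (adjusted p = 4.17e-05). The other gene (TRINITY_DN2375_c0_g1_i2) stood at 331 and 353 in control and at 602 and 459 in hypergravity, with the hypergravity libraries further apart than the controls. Its log2 fold change was 0.62 ± 0.14 (adjusted p = 0.0101), and the adjusted p was 0.0669 without the trend and 0.0588 without hypergravity a. The scarcest transcript (TRINITY_DN2601_c0_g1_i1), at 34 and 38 in control and 59 and 65 in hypergravity (adjusted p = 0.031), lost its call when any 1 library was left out, with adjusted p-values of 0.057 to 0.137. Of the 6 transcripts, 4 were called without hypergravity a and 5 without any other single library.

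Lactate dehydrogenases were of 2 kinds. L-lactate dehydrogenase A, the fermentative enzyme, was represented by 5 transcripts in 2 assembled genes, all of them scarce, and none was called higher. The transcript with the largest change (TRINITY_DN11727_c0_g1_i1) held 74 and 70 normalized counts in control and 36 and 35 in hypergravity, about the same in both libraries of each group. Its log2 fold change was -0.98 ± 0.22 (adjusted p = 0.00994), and the call held under every alternative. The other called transcript (TRINITY_DN11727_c0_g1_i3) held 65 and 63 against 39 and 30 (adjusted p = 0.022), with 0.0584 without control a, 0.0524 without control b and 0.118 without hypergravity b. The 4 transcripts of that gene summed to 238 and 233 in control and 153 and 128 in hypergravity, a log2 fold change of -0.75 ± 0.17 (adjusted p = 0.0109). The transcript of the other gene (TRINITY_DN96355_c0_g1_i2) held 67 and 85 in control against 63 and 42 and was not called (adjusted p = 0.15). D-lactate dehydrogenase, a mitochondrial enzyme that oxidises D-lactate and passes the electrons to cytochrome c, had 6 transcripts of 1 gene and 0 called by limma, with 0 at an unadjusted p under 0.05. Its most abundant transcript (TRINITY_DN13096_c0_g1_i12) stood at 1150 and 1146 in control and at 1095 and 1222 in hypergravity, so the groups overlapped (log2 fold change 0.01 ± 0.10, adjusted p = 0.948).

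Hemoglobins showed the largest difference. Non-symbiotic hemoglobin was scarce in control, at 54 and 72 normalized counts for one transcript (TRINITY_DN26524_c0_g1_i3), and stood at 248 and 242 in hypergravity. Both hypergravity libraries were more than 3 times the higher control library, and the log2 fold change was 1.95 ± 0.19 (3.87-fold, adjusted p = 7.56e-05). The other transcript (TRINITY_DN26524_c0_g1_i1) rose from 80 and 89 to 299 and 293, a log2 fold change of 1.80 ± 0.16 (adjusted p = 3.7e-05). The gene as a whole, with 2 further transcripts that the choice of hits did not take in, went from 228 and 246 to 854 and 837, a log2 fold change of 1.83 ± 0.13 (adjusted p = 1.42e-05). Calls of both member transcripts held under every alternative setting. The truncated class, two-on-two hemoglobin-3, had 4 transcripts of 1 gene, 0 called by limma and 0 at an unadjusted p under 0.05. Its leading transcript (TRINITY_DN849_c0_g1_i1) had a mean level of 1979 normalized counts per kilobase, against 180 for TRINITY_DN26524_c0_g1_i3. It stood at 1345 and 1458 in control and at 1589 and 1348 in hypergravity, and the groups overlapped (log2 fold change 0.06 ± 0.11, adjusted p = 0.702).

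**Figure D2:**
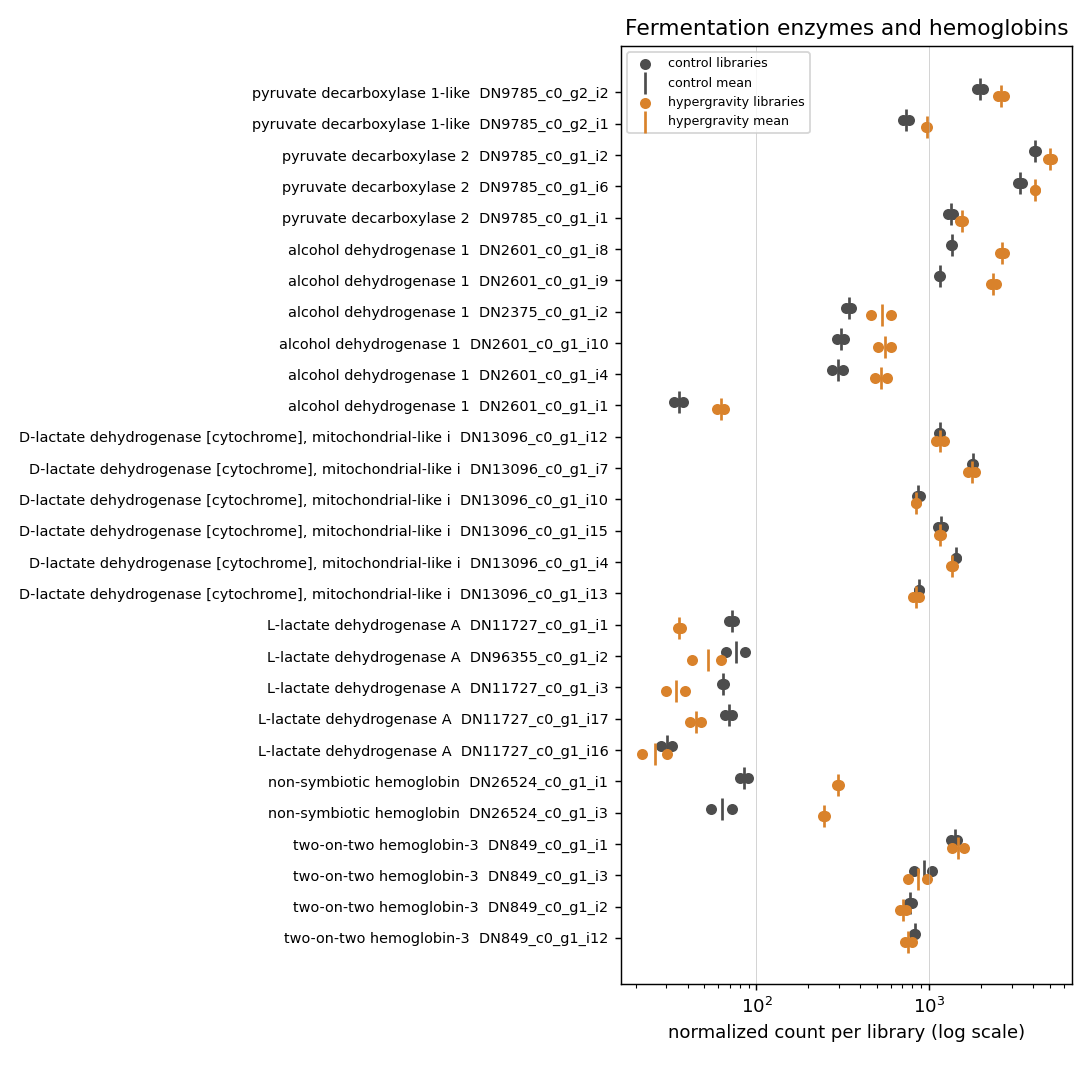
Normalized counts (log axis) of the 28 transcripts of fermentation enzymes and hemoglobins in each control (grey) and hypergravity (orange) library; vertical ticks are group means. Alcohol dehydrogenase 1 and non-symbiotic hemoglobin separate to the right in hypergravity, L-lactate dehydrogenase A lies to the left, and D-lactate dehydrogenase and two-on-two hemoglobin-3 stay together.

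Glycolysis itself had 108 transcripts in 64 assembled genes, of which 17 were called higher, 9 lower and 82 neither, with a median log2 fold change of 0.03, where 13.5% of all transcripts were called higher and 11.9% lower. Their share of the recovered normalized counts was 0.346% and 0.349% in control, against 0.37% and 0.364% in hypergravity. The 28 fermentation and hemoglobin transcripts held 0.054% and 0.0538% of control counts, against 0.0666% and 0.0664% of hypergravity counts, and 12 were called higher and 2 lower. The class and compartment counts below stand against the same 13.5% higher and 11.9% lower of all transcripts.

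Phosphofructokinase, which phosphorylates fructose 6-phosphate and commits the sugar to glycolysis, is the largest class, with 36 transcripts in 18 assembled genes, 7 called higher and 2 lower. Phosphofructokinase 2 gave calls both ways from different genes: TRINITY_DN2184_c1_g2_i1 went from 377 and 412 normalized counts to 602 and 657, while TRINITY_DN1614_c0_g2_i4 went from 461 and 484 to 376 and 321. Neither pair of groups overlapped. The log2 fold changes were 0.67 ± 0.11 (adjusted p = 0.00183) and -0.44 ± 0.12 (adjusted p = 0.0252). The transcript of the class with the highest level per kilobase, also a phosphofructokinase 2 (TRINITY_DN1614_c0_g3_i1), stood at 1239 and 1282 in control and at 1357 and 1311 in hypergravity and was not called (log2 fold change 0.08 ± 0.09, adjusted p = 0.551). A scarce plastid phosphofructokinase 5 (TRINITY_DN6606_c0_g1_i7) rose from 29 and 25 to 51 and 49, a log2 fold change of 0.88 ± 0.24 (adjusted p = 0.0247). Its gene, summed over 4 transcripts, went from 1258 and 1220 to 1411 and 1484 and was not called (0.22 ± 0.10, adjusted p = 0.123). Another gene of the class (TRINITY_DN2025_c1_g1) had 5 transcripts, of which 1 is a member and was not called. Summed, they went from 411 and 381 to 808 and 771 and were called higher (0.99 ± 0.12, adjusted p = 0.000307). Of the 3 transcripts of phosphofructokinase 3, all of 1 gene, 2 were called higher, and of the 14 transcripts of phosphofructokinase 6 only 1 was. For phosphofructokinase 5 the adjusted p was 0.111 without control b, 0.0842 without hypergravity a and 0.0853 without hypergravity b. For TRINITY_DN1614_c0_g2_i4 it was 0.0915 without the trend, 0.106 without control b and 0.136 without hypergravity b.

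Aldolase, which splits fructose 1,6-bisphosphate into the triose phosphates, had 6 transcripts, 0 called by limma and 1 at an unadjusted p under 0.05. The leading cytoplasmic transcript (TRINITY_DN12525_c0_g1_i11), among the most abundant members per kilobase, stood at 19328 and 20575 normalized counts in control and at 22963 and 25799 in hypergravity. Both hypergravity libraries were above both controls, but the log2 fold change of 0.29 ± 0.11 did not pass the test (adjusted p = 0.0751). It did pass with total-count scaling (adjusted p = 0.0388), with quantile normalization (0.00421) and without hypergravity a (0.00667).

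Glyceraldehyde-3-phosphate dehydrogenase, the step that makes NADH, had 16 transcripts, 2 called higher and 1 lower. Of these 16, 1 was annotated as an NADP-dependent form, was counted with the class and was not called. The most abundant member of all per kilobase, cytosolic form 1 (TRINITY_DN4581_c1_g1_i2), was level at 12158 and 12220 normalized counts in control and 11878 and 12131 in hypergravity (log2 fold change -0.02 ± 0.09, adjusted p = 0.887). A cytosolic form 2 transcript at a far lower level per kilobase (TRINITY_DN24203_c0_g1_i3) rose from 375 and 373 to 935 and 1012, a log2 fold change of 1.38 ± 0.10 (2.6-fold, adjusted p = 1.49e-05). The plastid form GAPCP1 (TRINITY_DN5445_c0_g1_i3) rose from 561 and 567 to 986 and 1210, a log2 fold change of 0.95 ± 0.12 (adjusted p = 0.000267). In both of these transcripts the groups were well apart, and both calls held under every alternative. The form 1 gene TRINITY_DN9793_c0_g1, summed over its 5 transcripts, was not called (-0.23 ± 0.09, adjusted p = 0.0772). A shorter transcript of it (TRINITY_DN9793_c0_g1_i10) fell from 3488 and 3558 to 3112 and 2346, a log2 fold change of -0.38 ± 0.12 (adjusted p = 0.0466). That call is marginal, with an adjusted p of 0.0565 under total-count scaling, 0.0542 with quantile normalization, 0.189 without the trend, 0.0529 without control a, 0.0891 without control b and 0.197 without hypergravity b.

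Phosphoglycerate kinase, which makes the first ATP of the path, had 10 transcripts, 2 called higher and 0 lower. The abundant cytosolic transcript (TRINITY_DN9621_c0_g1_i6) stood at 7966 and 8042 normalized counts in control and at 8010 and 9077 in hypergravity and was not called (log2 fold change 0.09 ± 0.10, adjusted p = 0.529). A transcript of another cytosolic gene (TRINITY_DN7031_c0_g2_i4) rose from 607 and 657 to 844 and 814 (0.39 ± 0.10, adjusted p = 0.0171), and the plastid kinase (TRINITY_DN19611_c0_g1_i1) from 414 and 388 to 487 and 540 (0.35 ± 0.11, adjusted p = 0.0458). Groups did not overlap for either, yet the changes were below 1.5-fold. For the cytosolic call the adjusted p was 0.0932 without the trend, 0.123 without control a and 0.0539 without hypergravity a. For the plastid call it was 0.0671 with upper-quartile scaling, 0.0643 with quantile normalization, 0.128 without the trend, 0.0814 without control a, 0.234 without control b and 0.206 without hypergravity b.

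Enolase, which makes phosphoenolpyruvate, had 10 transcripts, 4 called higher and 1 lower, and the called ones split by gene. Enolase 1 (TRINITY_DN1886_c0_g1_i6) rose from 910 and 876 normalized counts to 2061 and 2208, a log2 fold change of 1.26 ± 0.09 (2.39-fold, adjusted p = 1.23e-05). Its sister transcript (TRINITY_DN1886_c0_g1_i4) rose from 836 and 795 to 1674 and 1766, and both calls held under every alternative. An enolase-like transcript (TRINITY_DN1886_c1_g1_i2) rose from 2078 and 2226 to 3210 and 2908 (0.51 ± 0.09, adjusted p = 0.003), and the transcript with the highest level per kilobase (TRINITY_DN9276_c0_g1_i4) from 2985 and 2998 to 3559 and 3685 (0.28 ± 0.08, adjusted p = 0.0366). The gene of that enolase-like transcript, TRINITY_DN1886_c1_g1, summed over it and 1 transcript outside the members, went from 2914 and 3171 to 7148 and 6841 (1.20 ± 0.09, adjusted p = 1.86e-05). The transcript annotated as the chloroplast enolase 1 (TRINITY_DN1886_c2_g1_i1) went the other way, from 2356 and 2380 to 1724 and 1728 (-0.46 ± 0.08, adjusted p = 0.0033). Libraries of each group agreed closely and the groups did not overlap in any of these transcripts. Without the trend the adjusted p was 0.0569 for the enolase-like transcript, 0.059 for the chloroplast enolase and 0.177 for TRINITY_DN9276_c0_g1_i4. For the last of these it was also 0.0611 with upper-quartile scaling, 0.235 without control a, 0.246 without control b and 0.079 without hypergravity b.

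Pyruvate kinase, which makes the last ATP and the pyruvate, had 30 transcripts, 2 called higher and 5 lower. Among 18 transcripts annotated as cytosolic, 2 were called higher and 0 lower; among 12 annotated as plastid forms, 0 were called higher and 5 lower, 4 of them transcripts of 1 assembled gene of isozyme A (TRINITY_DN2320_c0_g1). The difference between compartments was not tested. Of the 4, TRINITY_DN2320_c0_g1_i1 lost its call without the trend (adjusted p = 0.146), control a (0.109), control b (0.119) or hypergravity a (0.105), and TRINITY_DN2320_c0_g1_i2 likewise (0.113, 0.0617, 0.0962 and 0.059), while TRINITY_DN2320_c0_g1_i4 lost it without control b (0.0799). The leading cytosolic transcript (TRINITY_DN11013_c1_g1_i3) stood at 2498 and 2660 normalized counts in control and at 2997 and 3092 in hypergravity without a call (0.24 ± 0.09, adjusted p = 0.0686; 0.047 with total-count scaling). Its sister (TRINITY_DN11013_c1_g1_i4) rose from 2180 and 2233 to 3038 and 3258 (0.51 ± 0.09, adjusted p = 0.00202), and a cytosolic isozyme (TRINITY_DN5227_c0_g2_i1) rose from 409 and 408 to 563 and 565 (0.47 ± 0.11, adjusted p = 0.00972). Isozyme A (TRINITY_DN2320_c0_g1_i9) fell from 326 and 388 to 236 and 221 (-0.64 ± 0.14, adjusted p = 0.0074), and its gene as a whole from 3618 and 3755 to 2671 and 2929 (-0.40 ± 0.09, adjusted p = 0.0101). Isozyme G (TRINITY_DN4031_c0_g2_i3) fell from 428 and 400 to 337 and 272 (-0.45 ± 0.14, adjusted p = 0.0355). Its gene, summed over 3 transcripts, stood at 2779 and 2657 against 2522 and 2635 and was not called (-0.08 ± 0.09, adjusted p = 0.573). The groups were apart in each of these. The adjusted p for TRINITY_DN5227_c0_g2_i1 was 0.0561 without the trend, that for isozyme A was 0.0595 without control b, and that for isozyme G was 0.11 without the trend, 0.114 without control a and 0.196 without hypergravity b.

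**Figure D3:**
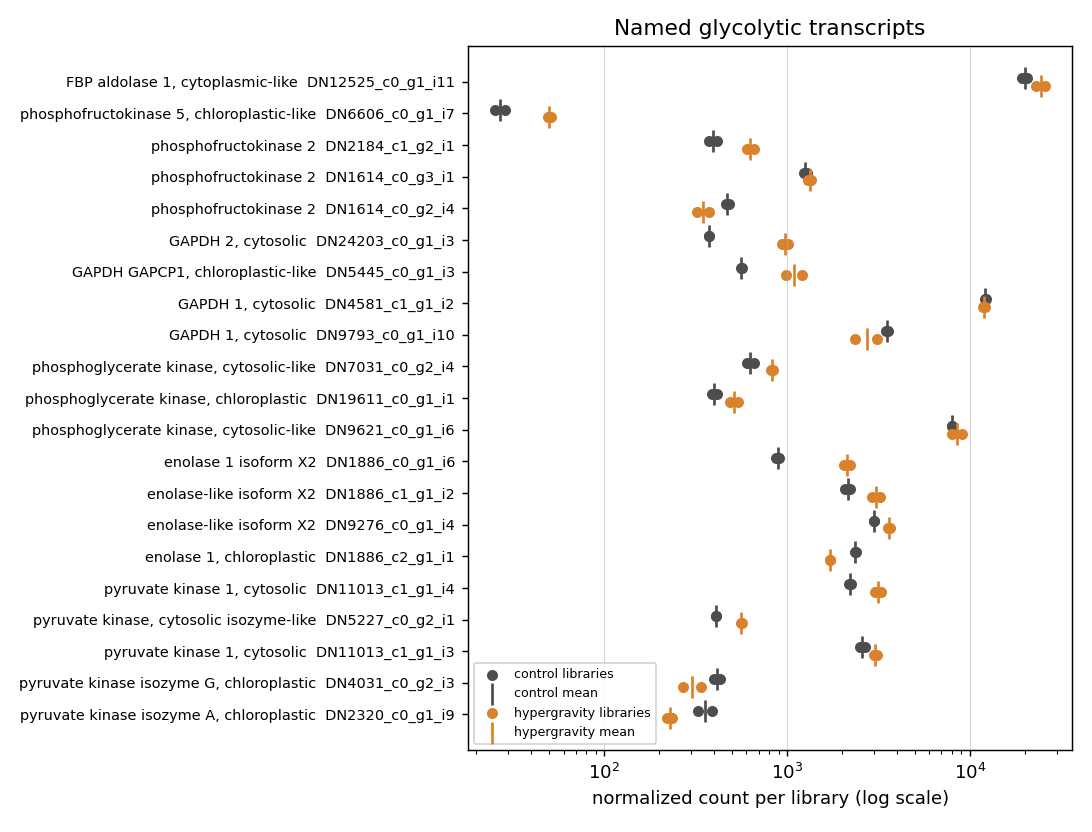
Normalized counts (log axis) of 21 glycolytic transcripts in each control (grey) and hypergravity (orange) library; vertical ticks are group means. Rows run in pathway order and, within an enzyme, from the largest rise to the largest fall; the cytosolic form 2 of glyceraldehyde-3-phosphate dehydrogenase and enolase 1 show the widest gaps.

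Taken by compartment over all of glycolysis, 78 transcripts whose hit named the cytosol or no compartment had 12 called higher and 3 lower, and 30 transcripts annotated to plastids had 5 higher and 6 lower, with medians of 0.03 and 0.04. Transcripts annotated to plastids held 0.0458% and 0.0454% of control counts against 0.043% and 0.0435% of hypergravity counts, and the others held 0.3% and 0.303% against 0.327% and 0.32%. Summed over whole classes, alcohol dehydrogenase 1 went from 3431 and 3519 normalized counts to 6660 and 6651, and enolase from 12050 and 12318 to 15430 and 15310. Glyceraldehyde-3-phosphate dehydrogenase, the class with the largest sum, stood at 56120 and 57141 in control and at 56149 and 52278 in hypergravity, so its groups overlapped. The sum of L-lactate and D-lactate dehydrogenase was 7583 and 7589 against 7121 and 7497, nearly all of it the mitochondrial enzyme.

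Among the 21 transcripts with another function, 3 were called higher and 2 lower, against 13.5% and 11.9% of all transcripts. A probable cinnamyl alcohol dehydrogenase 1 (TRINITY_DN17557_c0_g1_i3), of the family that makes lignin alcohols, rose from 156 and 122 normalized counts to 289 and 300 (1.09 ± 0.16, adjusted p = 0.000912, held under every alternative), while the abundant transcript of another gene with the same annotation (TRINITY_DN2584_c1_g1_i7) overlapped between groups at 2300 and 2240 against 2191 and 2322 (adjusted p = 0.953). A bifunctional enolase-phosphatase E1 (TRINITY_DN175_c0_g1_i3), an enzyme of methionine salvage, fell from 3664 and 3562 to 2546 and 2768 (-0.44 ± 0.09, adjusted p = 0.00477, and 0.0704 without the trend). Both of these differences separated the groups. A leghemoglobin reductase-like transcript (TRINITY_DN87414_c0_g1_i1) stood at 1628 and 1591 in control and at 1903 and 2009 in hypergravity (0.28 ± 0.09, adjusted p = 0.0398), and its adjusted p was 0.0672 with upper-quartile scaling, 0.176 without the trend, 0.164 without control a, 0.256 without control b and 0.121 without hypergravity b. An aldolase-lysine N-methyltransferase (TRINITY_DN2290_c0_g1_i48) stood at 811 and 824 against 648 and 679 (-0.30 ± 0.10, adjusted p = 0.0456), with 0.0556 under total-count scaling and 0.151 without the trend. Its log2 fold change was -0.34 to -0.27 when any 1 library was left out, but the call held in only 6 of the 12 alternative fits of transcripts. Summed over its 9 transcripts, the gene stood at 4243 and 4234 against 4492 and 4459 and was not called (0.08 ± 0.08, adjusted p = 0.521).

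Steps that feed, bypass or follow the same path were counted from further lists, 199 transcripts in all, of which 44 were called higher and 20 lower, with a median log2 fold change of 0.11, against 13.5% of all transcripts called higher and 11.9% lower. Hexokinase-7, which phosphorylates glucose at the entry, had 7 transcripts of 1 gene and all 7 rose. The transcript with the largest change (TRINITY_DN9102_c0_g1_i5) went from 891 and 910 normalized counts to 2379 and 2602 (1.46 ± 0.09, adjusted p = 5.86e-06), held under every alternative. The hexokinase list as a whole had 8 of 30 higher and 2 lower, and hexokinase-6 (TRINITY_DN3859_c0_g1_i5) fell from 255 and 259 to 170 and 184 (adjusted p = 0.0187; 0.056 without control a, 0.0809 without control b, 0.0688 without hypergravity a). Another hexokinase-6 transcript of that same gene (TRINITY_DN3859_c0_g1_i7) was called higher. All 4 hexokinase-6 transcripts together held 0.00251% and 0.00252% of control counts against 0.00268% and 0.00279% of hypergravity counts. The hexokinase list also held 3 ketohexokinase-like transcripts, of which 0 were called. Sucrose synthase, which opens sucrose for glycolysis without using ATP and is known as a low-oxygen gene, had 4 of 21 higher and 4 lower. Sucrose synthase 1, with 7 transcripts, 2 higher and 2 lower, held 0.057% and 0.0565% of control counts against 0.0445% and 0.0479% of hypergravity counts. A scarce transcript of it (TRINITY_DN26598_c0_g2_i1) rose from 90 and 97 to 313 and 207, and a sucrose synthase 2 transcript (TRINITY_DN94004_c0_g1_i1) fell from 104 and 128 to 54 and 40, with log2 fold changes of 1.44 ± 0.21 (adjusted p = 0.000743) and -1.28 ± 0.23 (adjusted p = 0.00297), each held under every alternative.

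Steps around phosphoenolpyruvate and pyruvate gave the strongest single rises of these lists. Their counts stand against 13.5% of all transcripts called higher and 11.9% lower. Phosphoenolpyruvate carboxykinase, which makes phosphoenolpyruvate from oxaloacetate, had 5 transcripts of 1 gene, all called higher, with log2 fold changes of 1.38 to 2.34. Its TRINITY_DN19821_c0_g1_i3 went from 138 and 187 normalized counts to 808 and 828, 5.07-fold (adjusted p = 6.94e-06). Pyruvate, phosphate dikinase 2 (TRINITY_DN30328_c0_g1_i1), which remakes phosphoenolpyruvate from pyruvate, went from 196 and 200 to 701 and 650 (1.76 ± 0.12, adjusted p = 7.79e-06). The list of phosphoenolpyruvate carboxylases and their kinases had 3 of 18 higher and 3 lower, and held 0.043% and 0.0468% of control counts against 0.0417% and 0.0408% of hypergravity counts. Of 5 transcripts of carboxylase 1, 1 was called (TRINITY_DN1124_c1_g1_i7), which rose from 205 and 216 to 428 and 507 (1.14 ± 0.13, adjusted p = 0.000207), and a phosphoenolpyruvate carboxylase kinase (TRINITY_DN3452_c0_g1_i10) fell from 355 and 465 to 221 and 196 (-0.96 ± 0.16, adjusted p = 0.00153). The groups did not overlap in any of these 4, as in 63.9% of all transcripts, and the calls of these 4 held under every alternative. Alanine aminotransferase, which banks pyruvate as alanine under low oxygen, had 9 of 15 higher and 2 lower. Of its 5 assembled genes, 2 had a higher transcript and 1 a lower one. Transcript TRINITY_DN14599_c1_g1_i7 rose from 1047 and 1104 to 1628 and 1647 (0.61 ± 0.09, adjusted p = 0.000869, held under every alternative), whereas TRINITY_DN23016_c0_g1_i6 fell from 824 and 1008 to 648 and 494 (adjusted p = 0.0068, and 0.0673 without the trend).

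Oxygen sensing was represented by plant cysteine oxidases, which mark group VII ethylene response factors for destruction when oxygen is present, and by those factors themselves. Plant cysteine oxidases had 3 of 13 transcripts higher and 0 lower, and the largest change was in a form 2-like transcript (TRINITY_DN1092_c0_g1_i2), from 448 and 504 normalized counts to 1065 and 1081 (1.17 ± 0.10, adjusted p = 3.78e-05, held under every alternative). A scarce form 5-like transcript (TRINITY_DN81593_c0_g1_i1) went from 36 and 43 to 67 and 64 (adjusted p = 0.0453, and 0.0565 to 0.212 when any 1 library was left out). The factors had 4 transcripts, 3 of them lower. All 3 were ERF073-like, in 2 assembled genes, and the 1 ERF071-like transcript was not called. No factor of the group under another name was counted, so these 4 do not stand for the whole group. Over all transcripts, 13.5% were called higher and 11.9% lower. One ERF073-like transcript (TRINITY_DN1456_c0_g1_i12) fell from 366 and 411 to 232 and 124 (-1.19 ± 0.24, adjusted p = 0.00549, and 0.0554 without the trend), and a transcript of another gene (TRINITY_DN3495_c0_g1_i6) fell from 568 and 1018 to 439 and 269 (-1.14 ± 0.27, adjusted p = 0.0113; 0.0881 without the trend, 0.0729 without hypergravity b). The groups did not overlap, although the libraries within a group were far apart for both.

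Among the remaining steps, triosephosphate isomerase had 1 of 7 transcripts higher, glucose-6-phosphate isomerase 2 of 7 and the phosphoglycerate mutase list 4 of 30. Pyruvate dehydrogenase E1 had 1 of 15 higher and aldehyde dehydrogenase family 2 had 2 of 8, with 0 lower in each of these lists. Over all transcripts, 13.5% were called higher and 11.9% lower. In the mutase list, the bisphosphoglycerate-independent mutase had 2 of 2 transcripts higher and its -like form 0 of 2. The others were annotated as mutase-like proteins 1, 4 or AT74H, and their role in glycolysis was not tested. Pyrophosphate-dependent phosphofructokinase, which can replace the ATP-using enzyme, had 1 of 12 higher and 5 lower, all in the beta subunit. The 5 lower were of 1 assembled gene. The beta subunit as a whole held 0.0117% and 0.0114% of control counts, against 0.0128% and 0.0135% of hypergravity counts. Formate dehydrogenase had 1 of 3 lower. Fructose-1,6-bisphosphatase, the enzyme of the reverse direction, had 0 of 7 called by limma and 1 of 7 at an unadjusted p under 0.05. The bisphosphoglycerate-independent mutase (TRINITY_DN11268_c0_g1_i5) stood at 3190 and 3051 normalized counts in control and at 4215 and 4687 in hypergravity (adjusted p = 0.00268, and 0.0547 without the trend). The mutase-like AT74H (TRINITY_DN23764_c0_g1_i2), at 285 and 387 against 467 and 450, had an adjusted p of 0.046, and 0.142 without the trend, 0.361 without control a, 0.123 without hypergravity a and 0.11 without hypergravity b. The beta subunit transcript TRINITY_DN10261_c2_g1_i6 fell from 127 and 146 to 81 and 61 (adjusted p = 0.00903, and 0.0547 without hypergravity b), and TRINITY_DN11293_c0_g2_i1 went from 36 and 41 to 64 and 65 (adjusted p = 0.0443, and 0.0834 to 0.178 when any 1 library was left out).

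Cytosolic glucose-6-phosphate isomerase (TRINITY_DN22445_c0_g1_i6) rose from 1682 and 1569 normalized counts to 2072 and 2340 (adjusted p = 0.00819; 0.085 without the trend, 0.0603 without control b), and the plastid form (TRINITY_DN9641_c0_g1_i1) from 1187 and 1252 to 1637 and 1642 (adjusted p = 0.00611; 0.0719 without the trend, 0.0512 without control a). Triosephosphate isomerase-like (TRINITY_DN3559_c1_g1_i1) rose from 251 and 258 to 373 and 339 (adjusted p = 0.0193; 0.0611 without the trend, 0.0655 without control a, 0.0908 without hypergravity a). The groups did not overlap in these 3 transcripts, as in 63.9% of all transcripts. Plastid pyruvate dehydrogenase E1 beta-3 (TRINITY_DN14198_c0_g1_i5) rose from 577 and 594 to 873 and 764 (adjusted p = 0.00869, and 0.0679 without the trend), and formate dehydrogenase (TRINITY_DN6265_c0_g1_i6) fell from 860 and 943 to 682 and 648 (adjusted p = 0.0105; 0.0766 without the trend, 0.0949 without control b). For mitochondrial aldehyde dehydrogenase B7 (TRINITY_DN17668_c0_g1_i2), at 2885 and 2824 against 3334 and 3675, the adjusted p was 0.0361, and 0.0581 with upper-quartile scaling, 0.174 without the trend, 0.161 without control a, 0.245 without control b and 0.116 without hypergravity b. For the scarce C4-like form (TRINITY_DN4369_c0_g2_i1), at 33 and 27 against 47 and 58, it was 0.0447, and 0.0501 with quantile normalization, 0.201 without control b, 0.06 without hypergravity a and 0.214 without hypergravity b.

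**Figure D4:**
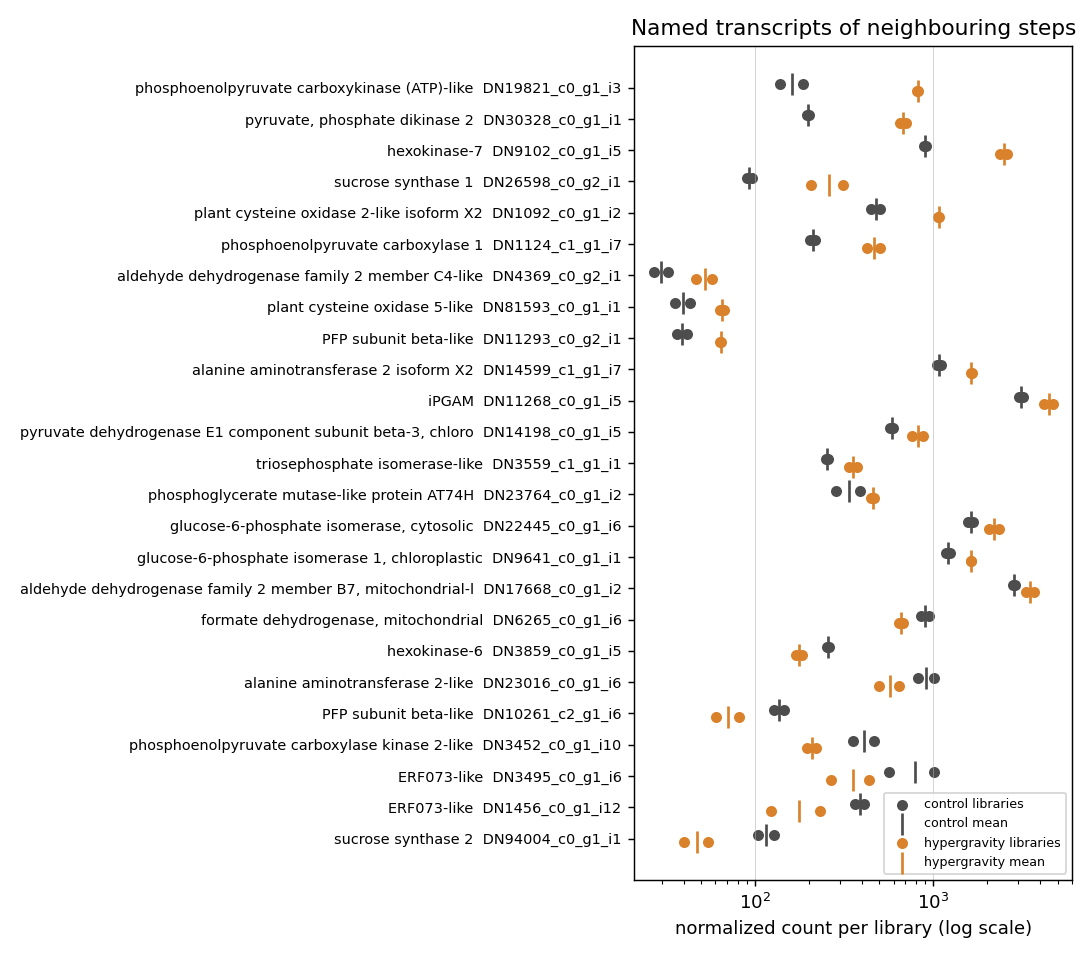
Normalized counts (log axis) of 25 transcripts of neighbouring steps and oxygen sensing in each control (grey) and hypergravity (orange) library, ordered from the largest rise to the largest fall; vertical ticks are group means (iPGAM, bisphosphoglycerate-independent mutase; PFP, pyrophosphate-dependent phosphofructokinase; ERF, ethylene response factor). Phosphoenolpyruvate carboxykinase, the dikinase and hexokinase-7 show the widest rises, and sucrose synthase 2 and the ERF073-like transcripts the widest falls.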

How the data were processed

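The deposited table gave 1 value per group for each assembled transcript, called FPKM per the file headers; the submitters' processing notes name RSEM, with assembler, aligner and genome build each not given in the sources used here. For 91482 rows the deposited signal proved to be whole counts of 2 libraries, each divided by its size factor and added; all (100%) split into exactly 1 pair of counts (largest error 5.02e-10, tolerance 1e-09, next best pair 4.67e-07). The other 55815 deposited rows were taken as FPKM and not tested. Because the deposited unit was not counts, limma 3.58.1 (R 4.3.3) was fitted to log2 of the normalized count plus 1, with eBayes and a mean-variance trend, over 91482 transcripts, with Benjamini-Hochberg adjustment and calls at an adjusted p under 0.05. The fit had 2 residual and 7.91 prior degrees of freedom, was checked on simulated data, and gave a median standard error of 0.177. The lowest recovered count of a member was 16, so no transcript was at 0 and no low-value filter removed any.

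Members and lists were chosen with earlier results of these data known. Per class, the text names the member with the highest level per kilobase and at most 4 called members with the largest change, at most 2 per direction and 1 per assembled gene; further lists give at most 2 called transcripts each. Sister transcripts, gene sums, class sums and leghemoglobin reductase (placed apart) were chosen after values or descriptions were seen. Alternatives were other pseudocounts (0.5 and 10), a mean of at least 50, total-count, upper-quartile (0.75) and quantile scaling, no trend, sums per assembled gene, each library left out, and, chosen after seeing the data, an adjusted p under 0.01. No sequence is shown, because no member's accession matched the wheat reference table used here (0 matched).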

Additional observations from a re-analysis of the deposited data

Results flagged for a closer look

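Of 13 rows with the same protein text and 1 FPKM value per group, which no comparison here uses, 3 stood out by a rule chosen after the values were seen (at least 2-fold higher, and at least 1 FPKM in hypergravity). An enolase 1 row (TRINITY_DN44506_c0_g2_i1) was 0.44 FPKM in control and 7.71 in hypergravity. A GAPCP2 row of glyceraldehyde-3-phosphate dehydrogenase (TRINITY_DN30202_c1_g1_i1) was 0.28 and 1.49 FPKM. The rule looked only for rises, and another GAPCP2 row (TRINITY_DN35688_c0_g1_i2) went the other way, from 3.01 to 0 FPKM. A phosphofructokinase 6 row (TRINITY_DN31632_c0_g1_i4) was 0.4 and 3.98 FPKM. They are the authors' deposited values with no replicates. Of all 55815 such rows, 26963 (48.3%) met the same rule, and their median was 0.52 FPKM in control and 1.35 in hypergravity, so 3 of 13 is not above that share.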

How the results depend on the processing

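Of the 157 members, 32 were called higher and 13 lower. Without the mean-variance trend the counts were 19 and 5, while over all transcripts 10% and 7.24% were then called higher and lower. With an adjusted p under 0.01, chosen after seeing the data, they were 19 and 5. Leaving out 1 library gave 19 to 28 higher and 4 to 14 lower, lowest without control b. Summed per assembled gene, 20 of the 83 genes were higher against 22 with a higher member, and 5 lower against 8 with a lower member. Over all 47167 assembled genes, 14.3% were then called higher and 12.3% lower. Total-count scaling gave 35 and 10, where 13.9% and 11.3% of all transcripts were called higher and lower. Upper-quartile scaling gave 28 and 15, where 12.8% and 13.6% were. The cause of these shifts was not tested. At the threshold of 0.05, 15 members were called higher and 1 lower in every alternative fit of transcripts. Across these fits 40 of the 157 members changed sign in at least 1, and 0 of them were called members. Among the named transcripts, cinnamyl alcohol dehydrogenase TRINITY_DN2584_c1_g1_i7 was 0.0051 under total-count scaling and -0.051 to 0.0327 with a library left out; D-lactate dehydrogenase TRINITY_DN13096_c0_g1_i12 was -0.0162 under upper-quartile and -0.0177 under quantile scaling and -0.0681 to 0.0904 with a library left out; TRINITY_DN4581_c1_g1_i2 was 0.07 under quantile scaling; and TRINITY_DN849_c0_g1_i1 was -0.0551 to 0.1824 with a library left out. No paired analysis was possible because the recovered libraries carry no replicate number. Scaling moved the median log2 fold change of all transcripts between -0.04 and 0.00. Scarce transcripts such as L-lactate dehydrogenase A had the wider standard errors.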
